A study of Mus musculus with 44 samples.

Results

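The genes described here are 5 repressors of the circadian clock, Cry1, Cry2, Ciart, Bhlhe40 and Bhlhe41. They were chosen by name, with earlier results of these data known, from the 24733 genes with any value above 0 in mouse kidney RNA. Each level is the sum of a gene's transcripts in TPM, a share of all transcripts that is scaled for transcript length, so levels may be compared between genes.

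RNA came from kidneys of 129SV mice aged 8 to 12 weeks, which were fed only at night. One genotype was wild type (WT) and the other was a knockout (KO) of Arntl, the gene for BMAL1, described in the series as Bmal -/-. No Cre driver or tissue restriction was named, and neither the sex of the mice nor any pooling of animals was given in the labels used here. Kidneys were collected at zeitgeber time (ZT, hours since lights on) 0, 4, 8, 12, 16 and 20. Each of the 12 groups held 2 libraries, called A and B, and nothing in the labels says that they came from separate mice, so p-values measure the spread between libraries. In bulk RNA, fewer cells of a type and less RNA per cell cannot be told apart.

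As background, BMAL1 and CLOCK bind DNA as a pair at E-boxes and switch on genes that include their own repressors. CRY1 and CRY2 are relatives of light-dependent DNA repair enzymes. In mammals they act with PER proteins to shut off the BMAL1-CLOCK pair. CIART, also called CHRONO, binds BMAL1 and represses it, and BHLHE40 and BHLHE41 (DEC1 and DEC2) are basic helix-loop-helix proteins that compete for E-boxes and recruit corepressors. In kidney the clock is known for timing salt and water handling along the tubule.

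The promoters are shown because the E-box is the element bound by the activators that the 5 proteins oppose. The 250 bases upstream of the start site were taken from RefSeq (GRCm38.p6), which held 4 of the 5 genes in the table used here. Bhlhe40 had no entry. Capitals mark the E-box CACGTG, which reads the same on both strands, and its variant CACGTT, shown as AACGTG where it lies on the reverse strand.
Ciart (chr3:95882229-95882478, minus strand): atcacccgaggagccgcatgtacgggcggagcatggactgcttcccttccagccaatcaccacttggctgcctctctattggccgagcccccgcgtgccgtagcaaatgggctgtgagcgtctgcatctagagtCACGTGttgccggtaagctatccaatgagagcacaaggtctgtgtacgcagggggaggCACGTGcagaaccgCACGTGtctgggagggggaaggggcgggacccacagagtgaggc
Cry1 (chr10:85185055-85185304, minus strand): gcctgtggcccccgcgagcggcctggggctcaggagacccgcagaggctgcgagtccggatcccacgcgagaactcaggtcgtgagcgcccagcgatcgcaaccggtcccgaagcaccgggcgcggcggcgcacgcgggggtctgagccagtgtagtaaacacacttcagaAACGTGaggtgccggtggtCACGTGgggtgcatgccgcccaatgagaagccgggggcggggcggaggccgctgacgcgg
Bhlhe41 (chr6:145865421-145865670, minus strand): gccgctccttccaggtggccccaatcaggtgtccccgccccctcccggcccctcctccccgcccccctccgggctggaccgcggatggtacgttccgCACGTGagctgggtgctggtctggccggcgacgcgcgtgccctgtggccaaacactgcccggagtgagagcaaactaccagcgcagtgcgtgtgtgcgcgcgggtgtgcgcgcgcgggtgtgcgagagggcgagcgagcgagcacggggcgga
Cry2 (chr2:92434070-92434319, minus strand): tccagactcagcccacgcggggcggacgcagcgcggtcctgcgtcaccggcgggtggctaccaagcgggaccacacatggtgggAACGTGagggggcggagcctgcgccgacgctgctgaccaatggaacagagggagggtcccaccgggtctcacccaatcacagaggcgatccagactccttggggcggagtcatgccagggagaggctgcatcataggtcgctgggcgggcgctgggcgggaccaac
Ciart held 3 copies of CACGTG, at 116 to 111, 58 to 53 and 44 to 39 bases upstream of its start. Cry1 held 1 copy, at 60 to 55 bases upstream, and the variant at 79 to 74. Bhlhe41 held 1 copy at 153 to 148 bases, and Cry2 held only the variant, at 166 to 161. Of 27025 genes with upstream sequence in the table, 6.86% held CACGTG on either strand, 4.50% held CACGTT and 18 genes (0.067%) held CACGTG at least 3 times, a count made after the Ciart sequence was seen. The D-box TTATGTAA (0.977% of genes) and the ROR element core TAGGTCA (2.55%) were searched on both strands too, and these letters were in none of the 4 windows. A match describes letters and is not evidence of binding.

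Depth is unknown, since TPM keeps none, and each library had 12398 to 12911 genes at 1 TPM or more. Summed proximal tubule markers (Slc34a1, Lrp2, Slc5a2 and Cubn) stood at 1736 to 2389 TPM over the 24 libraries, as kidney should. The adrenal markers Cyp11b1, Cyp11b2 and Star summed to at most 1.34 TPM. The fat markers Adipoq, Plin1 and Lep varied widely between libraries, summing to 0.017 to 5.90 TPM in WT and 0.030 to 6.47 in KO. The hepatocyte markers Alb, Apoa2 and Serpina1a summed to 29.1 to 50.3 TPM in WT and 38.4 to 85.8 in KO. Their means did not move alike, with Alb at 2.51 and 0.60 TPM and Apoa2 at 8.98 and 34.2. Some kidney markers moved with genotype: the 2 podocyte markers summed to 17.6 to 30.8 TPM in WT and 30.6 to 42.6 in KO, the 2 collecting duct markers to 94.6 to 180.8 and 128.0 to 349.8, and the 2 leukocyte markers to 117.6 to 223.9 and 82.9 to 162.6. The 2 loop of Henle markers went opposite ways. Mean Umod was 1194 TPM in WT and 926 in KO, and mean Slc12a1 was 235.6 and 395.2. The part of these markers in the results was not tested. Over all times the ranges of the targeted gene overlapped: Arntl lay between 0.295 and 12.9 TPM in WT and between 4.19 and 6.28 TPM in KO. Within times, WT lay above KO at ZT0 (12.9 and 12.4 against 4.72 and 5.11 TPM) and ZT20. It lay below KO at ZT8, ZT12 (0.295 and 0.527 against 5.94 and 5.70 TPM) and ZT16. At ZT4 the genotypes overlapped (6.16 and 4.71 TPM in WT, 6.28 and 4.98 in KO), so Arntl does not check the label of a ZT4 library. A whole-gene sum also counts exons outside a deleted part, so it does not show the deletion itself. The library labelled KO ZT4 A went against its label. It held 1.03 TPM of Cry1 where the other 11 KO libraries held 11.5 to 17.8, and 156.9 TPM of the distal tubule transporter gene Slc12a3, the lowest of the 12 KO libraries for each. Of Nr1d1, a REV-ERB repressor gene, it held 23.8 TPM, against 1.24 to 3.46 in the other 11 KO libraries and 22.0 and 33.0 in WT at ZT4. Results are therefore given with and without it, and for Cry1 and Cry2, in which it stood apart, the latter are no added support. The library's mitochondrial share of TPM was 40.3%, against 40.5% ± 1.31 (SD, n = 12) in WT and 37.6% ± 1.97 (SD, n = 12) in KO.

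In WT kidney, Bhlhe40 was the most abundant of the 5, with a lowest, median and highest value of 14.2, 28.1 and 32.7 TPM over 12 libraries. Cry2 followed with 3.22, 6.16 and 7.95 TPM, and Cry1 with 0.551, 4.34 and 6.64 TPM. Ciart held 0.658, 1.95 and 20.3 TPM, and Bhlhe41 held 0.338, 0.614 and 2.02 TPM. Bhlhe40 overlapped only the single highest Ciart library, while the ranges of Cry2, Cry1 and Ciart overlapped each other. The range of Bhlhe41 overlapped those of Ciart and Cry1. In KO without the library labelled KO ZT4 A, Bhlhe40 ranged from 18.1 to 34.2 TPM and Cry1 from 11.5 to 17.8 TPM. Cry2 then ranged from 8.74 to 11.7 TPM, Ciart from 0.394 to 1.88 TPM and Bhlhe41 from 0.304 to 1.14 TPM, so Cry1 overlapped Cry2 and Ciart overlapped Bhlhe41, with gaps below Bhlhe40 and between Cry2 and Ciart.

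**Figure D1:**
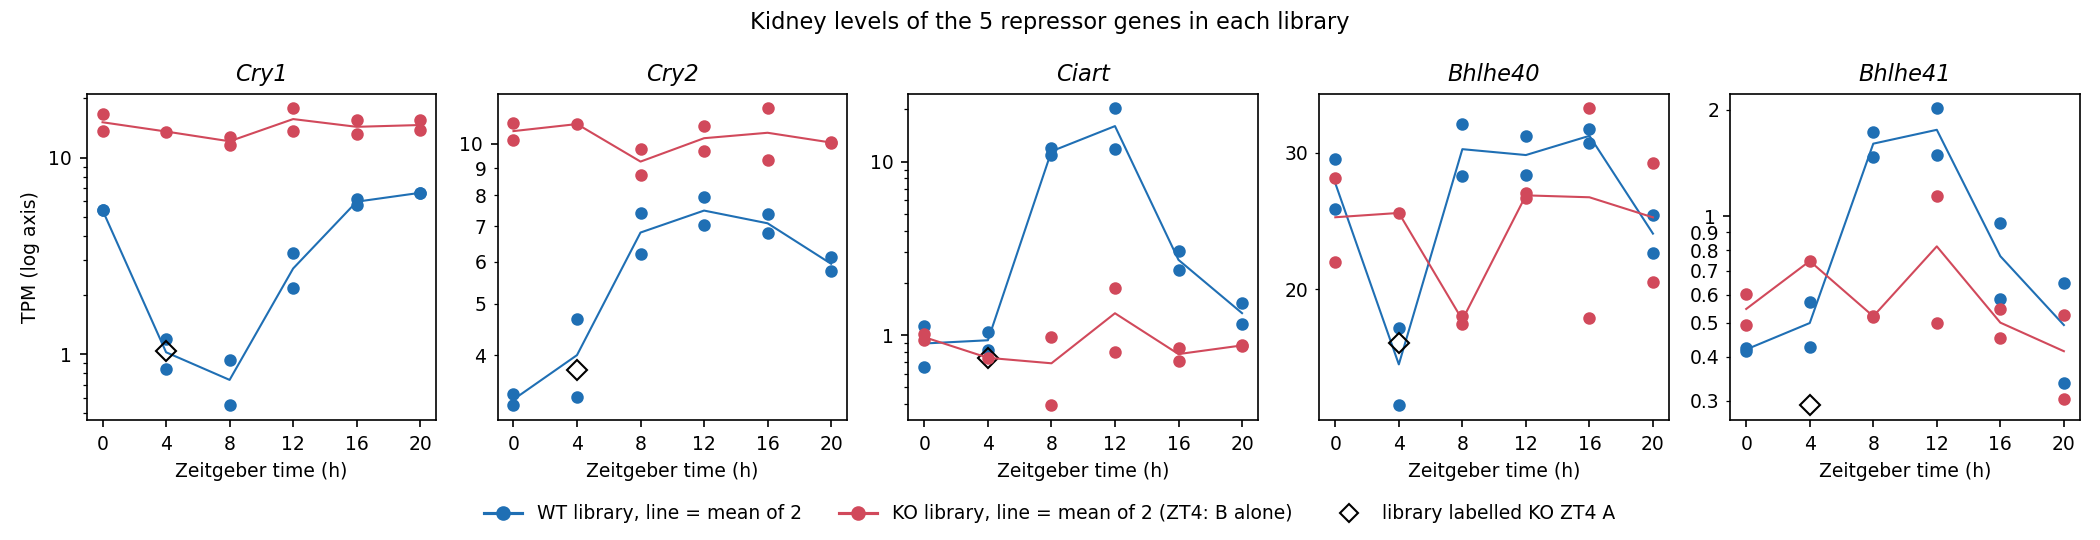
TPM of each gene (log axis) against zeitgeber time in hours, with 1 point per library, WT in blue and KO in red; lines join group means, and the KO line takes library B alone at ZT4. Cry1 and Cry2 lay above every WT library in 11 of the 12 KO libraries, Ciart lacked the WT rise at ZT8 and ZT12, Bhlhe41 lay below WT at both times, with KO ZT12 A at 1.14 TPM, and the open diamond is the library labelled KO ZT4 A.

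Cry1 (ENSMUSG00000020038, GRCm38 chromosome 10, 85131700 to 85185064, minus strand) was high at every time in KO. In WT its 2 libraries (A, B) held 5.43 and 5.39 TPM at ZT0, 1.20 and 0.845 at ZT4, 0.551 and 0.931 at ZT8, 3.29 and 2.17 at ZT12, 5.75 and 6.19 at ZT16, and 6.61 and 6.64 at ZT20. In KO they held 16.7 and 13.6 TPM at ZT0, 1.03 and 13.6 at ZT4, 12.7 and 11.5 at ZT8, 17.8 and 13.6 at ZT12, 15.6 and 13.1 at ZT16, and 13.8 and 15.5 at ZT20. WT thus fell to a low at ZT4 and ZT8, whereas the KO libraries other than ZT4 A lay above the highest WT library at all 6 times. The ratio of group means, KO to WT, was 16.4 at ZT8 and 2.21 at ZT20. With time of day in the model, the mean log2 difference was 2.01 (SE 0.34, adjusted p = 7.85e-05, limma with Benjamini-Hochberg adjustment over 12874 genes), higher in KO at 6 of 6 times. Without the library labelled KO ZT4 A it was 2.23 (SE 0.28, adjusted p = 2.75e-06).

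Cry2 (ENSMUSG00000068742, chromosome 2, 92403646 to 92434043, minus strand), the paralog of Cry1, was higher in KO by a smaller amount. Its WT libraries held 3.38 and 3.22 TPM at ZT0, 3.33 and 4.67 at ZT4, 6.21 and 7.41 at ZT8, 7.95 and 7.02 at ZT12, 6.78 and 7.39 at ZT16, and 5.77 and 6.11 at ZT20. Its KO libraries held 10.95 and 10.2 TPM at ZT0, 3.75 and 10.9 at ZT4, 8.74 and 9.77 at ZT8, 10.8 and 9.70 at ZT12, 11.7 and 9.32 at ZT16, and 10.03 and 10.1 at ZT20. As for Cry1, only the library labelled KO ZT4 A fell among the WT values. The mean log2 difference was 0.75 (SE 0.15, adjusted p = 0.000235, limma), and 0.85 (SE 0.12, adjusted p = 1.07e-05) without that library. Transcript Cry2-201 carried 93.9% of its TPM in WT and 93.9% in KO. The 2 distal tubule markers, Slc12a3 and Calb1, summed to 231.3 to 325.3 TPM in WT. Their sum was 266.5 in the library labelled KO ZT4 A and ran from 362.1 to 485.4 in the other KO libraries. Calb1 by itself overlapped between genotypes, at 64.8 to 134.4 TPM in WT and 98.5 to 220.4 in KO. The library labelled KO ZT4 A held 109.5 TPM of Calb1, which was not the lowest KO value. Slc12a3 is also among the genes most correlated with Cry2. The part of either marker in the result was not tested.

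Of the 4 members that passed a filter on low values, set at 1 TPM on average over the libraries, 3 differed in mean level between genotypes, Cry1 and Cry2 higher and Ciart lower. The background was high, as 60.9% of the 12874 genes tested were called (6555 higher in KO and 1289 lower), and 63% without the library labelled KO ZT4 A, so being called says little. The size says more: 123 genes had a larger absolute difference than Cry1, 202 than Ciart and 806 than Cry2. The median gene stood at 0.148 on the log2 scale, and median-of-ratios scaling of the libraries moved it to 0.002, with 2839 genes called higher and 2860 lower. On that scaling Cry1 stood at 1.87, Cry2 at 0.61 and Ciart at -1.79, with adjusted p-values of 0.000169, 0.00149 and 0.00124 (limma). Every KO library lay above every WT library for 1.42% of genes, with neither Cry1 nor Cry2 among them. Without the library labelled KO ZT4 A the share was 8.34%, and both were among them. Cry1 is one of the genes in which that library stood apart, so this describes the other 11 libraries and is no added support.

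By time of day, Cry1 passed the test at ZT8 (log2 difference 3.90, SE 0.74, adjusted p = 0.00663) and ZT12 (2.50, SE 0.74, adjusted p = 0.0185), with 14.6% and 38.2% of all genes called at those times (limma). Cry2 passed at ZT0 alone (1.65, SE 0.31, adjusted p = 0.0095), where 13.4% of genes were called. Each of these calls depended on single libraries, since the group fits rest on 2 libraries. Cry1 at ZT8 did not pass without KO ZT8 A (adjusted p = 0.0765) or WT ZT8 A (0.0571). Cry1 at ZT12 did not pass without KO ZT12 A (0.108) or WT ZT12 B (0.106), and Cry2 at ZT0 did not pass without KO ZT0 A (0.0807), WT ZT0 A (0.0713) or WT ZT0 B (0.058). The shares of all genes called moved too. The 1731 genes called at ZT0 became 1 without KO ZT0 A, 7 without WT ZT0 A, 186 without WT ZT0 B and 792 without KO ZT0 B. The 1877 at ZT8 became 74 without KO ZT8 A, 386 without WT ZT8 A and 505 without WT ZT8 B, and the 4914 at ZT12 became 2129 without KO ZT12 A, 2564 without WT ZT12 B and 3163 without WT ZT12 A.

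At ZT4 no gene of 12874 passed with all libraries (0% called, 1637 at an unadjusted p under 0.05, limma), and the 2 KO libraries were far apart. Without the library labelled KO ZT4 A, where KO is 1 library that is assumed to vary like the other groups, 11.6% of genes were called at ZT4. Cry1 then differed by 3.62 (SE 0.28, adjusted p = 7.91e-06) and Cry2 by 1.44 (SE 0.18, adjusted p = 0.00068). Leaving it out also tightened the pooled spread, so that Cry1 passed at all 6 times, with adjusted p-values up to 0.00812. Cry2 passed at 5 of 6, the exception being ZT8 (log2 difference 0.44, adjusted p = 0.0506). The share of all genes called without it was 18.7% at ZT0 and 18.7% at ZT8, 41.6% at ZT12, 25.5% at ZT16 and 8.58% at ZT20. With KO ZT4 B left out instead, Cry1 also passed at ZT0 (adjusted p = 0.00118), ZT16 (0.00177) and ZT20 (0.00822), and Cry2 at ZT12 (0.0263), ZT16 (0.0149) and ZT20 (0.00705).

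**Figure D2:**
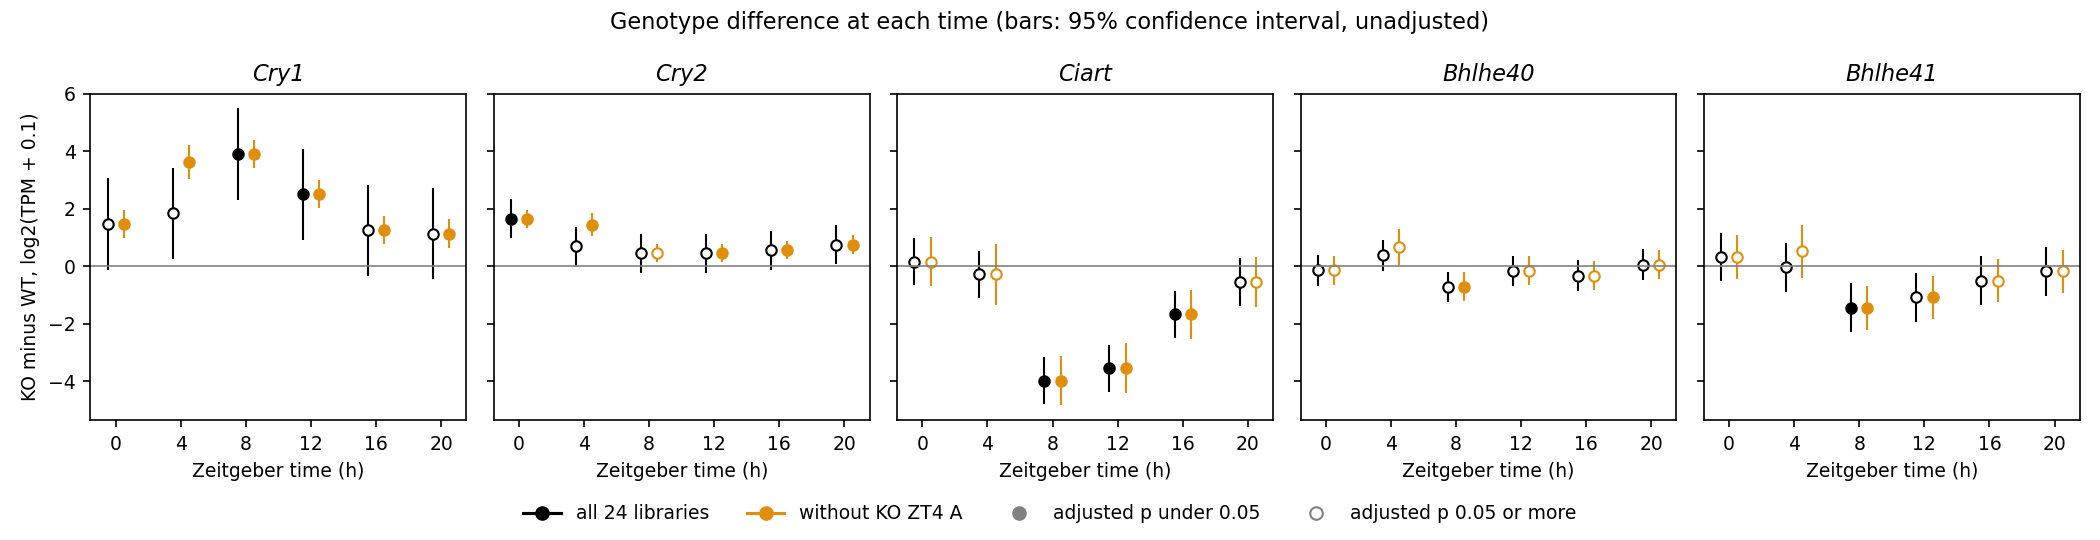
KO minus WT difference on the log2(TPM + 0.1) scale at each zeitgeber time in hours, from the fit of 1 mean per group, with all 24 libraries (black) and without the library labelled KO ZT4 A (orange); bars are unadjusted 95% confidence intervals and filled points have an adjusted p under 0.05. Cry1 was above 0 at all 6 times and furthest at ZT8 (3.90), and Ciart was furthest below 0 at ZT8 (-3.98) and ZT12 (-3.55).

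The balance of the 2 cryptochromes, which no scaling of a library can move, swung with the time of day in WT. The Cry1/Cry2 ratio of TPM there was 1.60 and 1.67 at ZT0, 0.0887 and 0.126 at ZT8, and 1.15 and 1.09 at ZT20, with a median of 0.626 over 12 libraries. In KO without the library labelled KO ZT4 A it stayed between 1.18 and 1.65, with a median of 1.40 over 11 libraries. So Cry1 exceeded Cry2 in all 11, but in WT only at ZT0 and ZT20. The library labelled KO ZT4 A had a ratio of 0.276, between the WT values at ZT4 of 0.361 and 0.181.

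**Figure D3:**
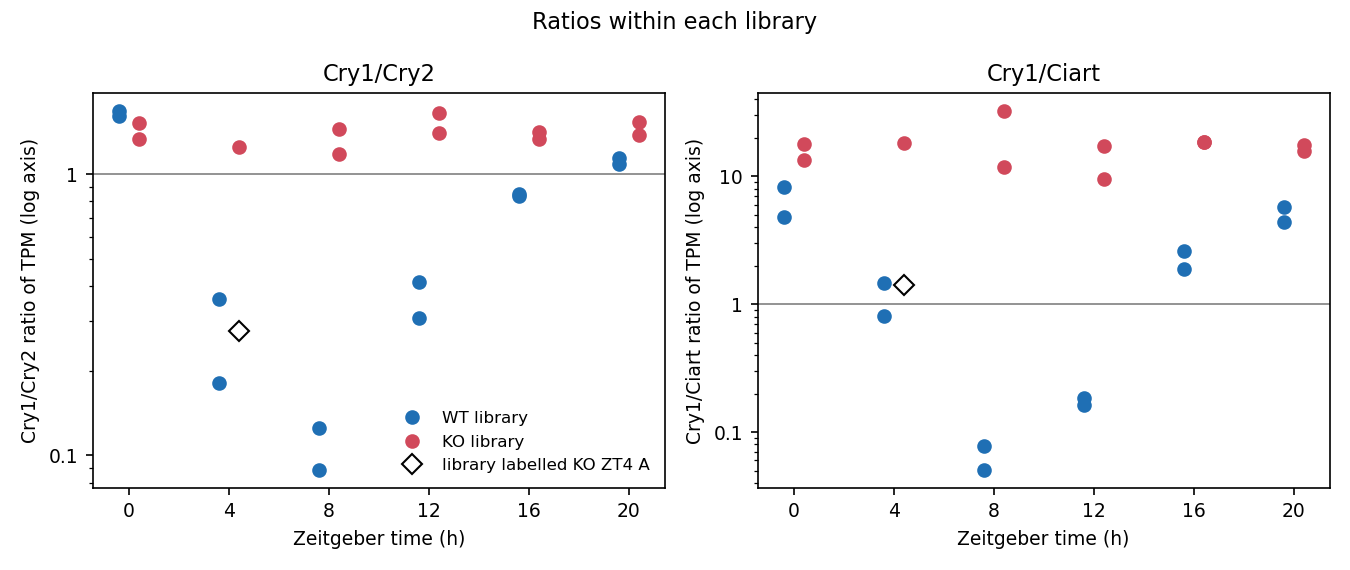
Ratios of TPM within each library (log axes) against zeitgeber time in hours, Cry1/Cry2 on the left and Cry1/Ciart on the right, with 1 point per library, WT in blue, KO in red and the library labelled KO ZT4 A as an open diamond. Apart from that library, the KO ratios ran from 1.18 to 1.65 for Cry1/Cry2 and from 9.49 to 32.2 for Cry1/Ciart. The latter differed within a time, with 32.2 and 11.8 in the KO libraries at ZT8. In WT the ratios swung from 0.0887 to 1.67 and from 0.0506 to 8.24.

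Ciart (ENSMUSG00000038550, chromosome 3, 95878503 to 95882251, minus strand), with the 3 E-boxes shown above, moved the other way. Its WT libraries held 0.658 and 1.13 TPM at ZT0, 0.822 and 1.05 at ZT4, 10.9 and 12.1 at ZT8, 20.3 and 11.8 at ZT12, 3.05 and 2.38 at ZT16, and 1.15 and 1.52 at ZT20. Its KO libraries held 0.931 and 1.01 TPM at ZT0, 0.738 and 0.740 at ZT4, 0.394 and 0.981 at ZT8, 1.88 and 0.794 at ZT12, 0.843 and 0.711 at ZT16, and 0.870 and 0.873 at ZT20. The WT rise at ZT8 and ZT12 was missing in KO, where values stayed at or under 1.88 TPM, and the genotypes overlapped at ZT0. At ZT8 KO was at 0.060 of the WT mean and at ZT12 at 0.083. The log2 difference was -3.98 at ZT8 (SE 0.38, adjusted p = 6.2e-05), -3.55 at ZT12 (SE 0.38, adjusted p = 5.02e-05) and -1.68 at ZT16 (SE 0.38, adjusted p = 0.00864), with 21.5% of genes called at ZT16 and 3.72% at ZT20 (479 genes, and 1 to 42 when any 1 of the 4 libraries there was left out), where no member passed (limma). The ZT16 call was lost without WT ZT16 A (-1.50, adjusted p = 0.086), when the 2766 genes called at ZT16 became 573, and they became 1245 without KO ZT16 A and 1539 without WT ZT16 B. At ZT0 the log2 difference was 0.15 (95% confidence interval -0.67 to 0.97). Over all times the mean difference was -1.65 (SE 0.39, adjusted p = 0.00154), and -1.73 (adjusted p = 0.00144) without the library labelled KO ZT4 A. That library did not stand apart for this gene. At ZT4 Ciart was low in both genotypes, so it does not check the label of that library.

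The shares of Ciart held by its transcripts varied, and that of Ciart-201 was highest in WT at ZT8, ZT12 and ZT16. Ciart-201 (ENSMUST00000036418), a protein-coding transcript, made up 40.7% of Ciart TPM over the WT libraries and 5.66% over the KO libraries. It reached 10.9 and 4.68 TPM at ZT12 in WT and at most 0.225 TPM in KO, where it was listed at 0 in 7 of 12 libraries. Ciart-202 held 15.6% in WT and 30.5% in KO, Ciart-205 held 23.4% and 22.3%, and Ciart-204 held 10.1% and 15.2%. These shares are of summed TPM, so the WT values weigh ZT8 and ZT12 most. By time in WT, Ciart-201 held 12.9% at ZT0, 27.6% at ZT4, 36.5% at ZT8, 48.5% at ZT12, 43.3% at ZT16 and 6.29% at ZT20. In KO it held 21.7% at ZT0, 7.67% at ZT4, 4.18% at ZT20 and 0% at the other 3 times. WT libraries at ZT0 and ZT20, with Ciart at 0.658 to 1.52 TPM, thus also had small shares. At ZT4, with Ciart at 0.822 and 1.05 TPM, the WT share was larger (27.6%), so the share did not simply follow the level. No difference between genotypes at a matched level was shown. All of these transcripts peaked at ZT8 or ZT12 in WT. Such shares are estimates by pseudoalignment, and at KO levels each transcript is near the bottom of the scale. An antisense gene, C920021L13Rik (plus strand, 95871522 to 95889093), spans Ciart. It stood at 4.52 TPM ± 0.91 (SD, n = 12) in WT and 6.76 TPM ± 1.48 (SD, n = 12) in KO. Whether strand was used is not given in the sources used here, so reads of the 2 genes may not be told apart.

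**Figure D4:**
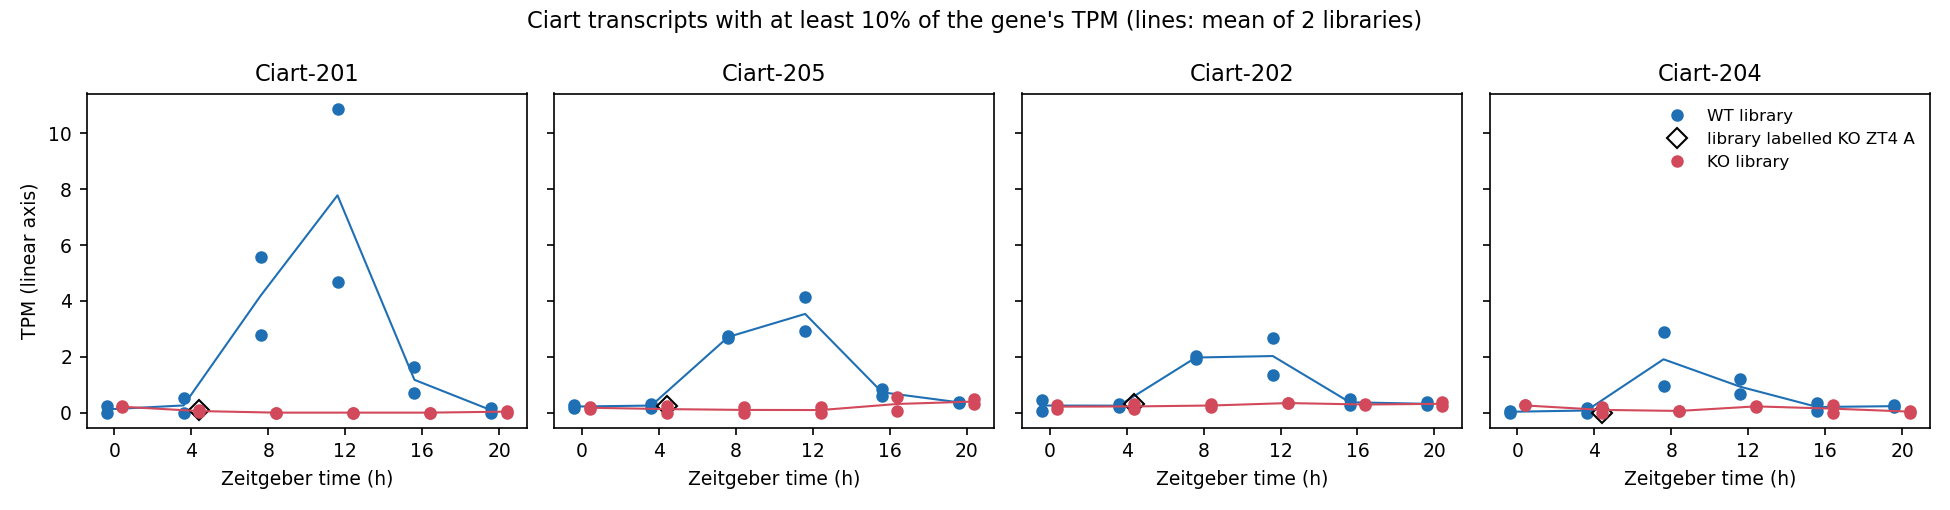
TPM (linear axis) of the 4 Ciart transcripts with at least 10% of the gene's TPM against zeitgeber time in hours, with 1 point per library, WT in blue and KO in red, lines through the means of 2 libraries and the library labelled KO ZT4 A as an open diamond. Ciart-201 rose to 10.9 TPM in WT at ZT12 and stayed at or under 0.225 TPM in KO.

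Bhlhe40 (ENSMUSG00000030103, chromosome 6, 108660629 to 108666925, plus strand) was the least affected of the 5 as measured by its mean difference. Its WT libraries held 25.4 and 29.4 TPM at ZT0, 14.2 and 17.8 at ZT4, 32.7 and 28.0 at ZT8, 28.1 and 31.5 at ZT12, 32.2 and 30.9 at ZT16, and 22.3 and 25.0 at ZT20. Its KO libraries held 21.7 and 27.9 TPM at ZT0, 17.04 and 25.1 at ZT4, 18.5 and 18.1 at ZT8, 26.3 and 26.6 at ZT12, 18.3 and 34.2 at ZT16, and 20.4 and 29.1 at ZT20. Both KO libraries lay under both WT libraries at ZT8 and ZT12, and the genotypes overlapped elsewhere. The share of all genes separated in this way at single times was not counted, so this only describes the values. The 2 KO libraries at ZT16 were further apart than the 2 libraries of any other group. The mean log2 difference was -0.16 (95% confidence interval -0.40 to 0.09, adjusted p = 0.246, limma), and it passed under median-of-ratios scaling (-0.31, adjusted p = 0.0377).

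At ZT8 the Bhlhe40 difference was -0.72 (SE 0.25, adjusted p = 0.0636), and it passed under several other settings. Without the library labelled KO ZT4 A its adjusted p was 0.0467, without KO ZT4 B it was 0.0467, without KO ZT16 A it was 0.0228, without KO ZT16 B it was 0.0229, and under median-of-ratios scaling it was 0.0375 (limma). At ZT16, leaving out KO ZT16 B gave -0.78 (adjusted p = 0.0397), against -0.33 (adjusted p = 0.359) with both. Bhlhe40 also responds quickly to stimuli, so 7 early response genes were summed as a sign of handling. Their sum ran from 9.50 to 15.9 TPM in WT and from 10.96 to 14.7 TPM in KO, with 12.9 and 14.7 TPM at ZT8 in KO against 15.9 and 14.5 in WT. The sum hides genes that differ. Of the 3 that passed the filter, 1 was called higher in KO in mean level and 0 lower (limma). Among all genes, 50.9% were called higher and 10% lower. Means in WT and KO were 4.09 and 4.90 TPM for Ier2, 5.59 and 5.16 for Junb, and 1.24 and 1.31 for Egr1. The early response gene Fos, which is too scarce to count for much in the sum and was under the filter, ran from 0.188 to 0.571 TPM in WT and from 0.307 to 0.808 TPM in KO, with means of 0.295 and 0.492. In KO, library B held more Bhlhe40 and more Fos than A at ZT0 (0.383 and 0.676 TPM of Fos in A and B) and ZT4 (0.307 and 0.808). The same held at ZT12 (0.367 and 0.585) and ZT16 (0.395 and 0.609). At ZT8 (0.397 and 0.622) B held more Fos but less Bhlhe40, and at ZT20 (0.392 and 0.367) it held more Bhlhe40 but less Fos. The parts of the sum and of Fos in the Bhlhe40 values were not tested. Bhlhe40-201 carried 82.0% of the gene's TPM and Bhlhe40-202 15.5%.

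Bhlhe41 (ENSMUSG00000030256, chromosome 6, 145858243 to 145865558, minus strand), the scarcer relative of Bhlhe40, had a mean of 0.739 TPM and was under the filter. Its tests therefore come from a fit of the 17348 genes that averaged 0.1 TPM or more. Its WT libraries held 0.423 and 0.416 TPM at ZT0, 0.425 and 0.572 at ZT4, 1.47 and 1.73 at ZT8, 2.02 and 1.49 at ZT12, 0.582 and 0.959 at ZT16, and 0.646 and 0.338 at ZT20. Its KO libraries held 0.492 and 0.600 TPM at ZT0, 0.292 and 0.747 at ZT4, 0.519 and 0.523 at ZT8, 1.14 and 0.500 at ZT12, 0.452 and 0.548 at ZT16, and 0.526 and 0.304 at ZT20. Like Ciart, it rose in WT at ZT8 and ZT12, when both KO libraries were lower, with KO ZT12 A the highest of all KO libraries at 1.14 TPM. KO also lay below WT at ZT16 and above it at ZT0, and the share of all genes separated in this way was not counted. At ZT8 the log2 difference was -1.45 (SE 0.40, adjusted p = 0.0318), with 10.6% of genes called in this fit, and it was -1.09 (SE 0.40, adjusted p = 0.0516) at ZT12. The ZT8 call was lost when any 1 of the 4 libraries at ZT8 was left out, with adjusted p-values of 0.188 without KO ZT8 A, 0.0773 without KO ZT8 B, 0.113 without WT ZT8 A and 0.148 without WT ZT8 B.

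At ZT12 Bhlhe41 passed without KO ZT12 A (log2 difference -1.62, adjusted p = 0.0323), the library labelled KO ZT4 A (0.0308), KO ZT4 B (0.031), WT ZT20 A (0.0496) or WT ZT20 B (0.0493). Its mean difference of -0.49 (SE 0.20, adjusted p = 0.0409, with 51.2% of genes called) was close to the threshold. It did not pass with no filter (adjusted p = 0.0576), with no time term (0.112) or without the library labelled KO ZT4 A (-0.46, adjusted p = 0.0666). It also did not pass when KO ZT8 A, KO ZT8 B, KO ZT12 B, KO ZT16 A, KO ZT20 B, WT ZT4 B, WT ZT8 A, WT ZT8 B, WT ZT12 A, WT ZT12 B, WT ZT16 B or WT ZT20 A was left out, with adjusted p-values from 0.0514 to 0.08. Both transcripts are protein-coding, and Bhlhe41-201 carried 62.4% of the TPM and Bhlhe41-202 37.6%. The Bhlhe40/Bhlhe41 ratio ran from 13.9 to 73.8 in WT and from 23.0 to 95.8 in KO.

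Daily rhythm was tested by fitting a 24-hour cosine in each genotype. In WT, 3 of the 4 members tested were rhythmic, where 13.7% of all genes were, and Bhlhe41 passed in the fit with the lower filter, where 9.83% did. Ciart had the widest swing of the 5, 4.26 log2 units from trough to peak (SE 0.48), peaking at 11.2 h (adjusted p = 3.58e-05, limma). Bhlhe41 swung by 2.00 (SE 0.33, adjusted p = 0.00158) with a peak at 10.8 h. Cry2 swung by 1.17 (SE 0.26, adjusted p = 0.0136) with a peak at 13.2 h. Cry1 swung by 3.28 (SE 0.64, adjusted p = 0.00552) with a peak at 19.0 h, the latest of the fitted peaks. Bhlhe40 swung by 0.64 (SE 0.24, adjusted p = 0.176). With time as 6 separate levels in place of a cosine, Cry1 (adjusted p = 0.0599) and Cry2 (0.106) did not pass. Without the library labelled KO ZT4 A, 16.6% of genes passed and the same 3 members were called.

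In KO, 0 of the 4 members tested passed (limma), and none had an unadjusted p under 0.05, against 3.64% of all genes called. Fitted swings, which cannot go below 0, were 1.36 (SE 0.64) for Cry1, 0.50 (SE 0.26) for Cry2, 0.29 (SE 0.48) for Ciart, 0.40 (SE 0.24) for Bhlhe40 and 0.43 (SE 0.33) for Bhlhe41. Much of the Cry1 and Cry2 values came from 1 library: without the library labelled KO ZT4 A they were 0.21 (SE 0.28) and 0.10 (SE 0.14), with 3.74% of all genes called and again 0 members.

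The difference in rhythm itself passed for Ciart alone among the 4, where 0.629% of all genes passed. Its swing was 3.97 log2 units smaller in KO (SE 0.68, adjusted p = 0.0089, limma), and 3.99 smaller (adjusted p = 0.0131) without the library labelled KO ZT4 A. For Cry1 the KO minus WT difference in swing was -1.92 (SE 0.90, adjusted p = 0.363) with all libraries and -3.07 (SE 0.39, adjusted p = 0.000553) without that library. For Cry2 it was -0.67 (SE 0.37, adjusted p = 0.378) with all libraries and -1.07 (SE 0.20, adjusted p = 0.0137) without it. So 3 of 4 members passed without it, when 0.87% of all genes did. That library stood apart in Cry1 and Cry2, so their calls without it describe the other libraries and are no added support. The difference for Bhlhe41 was -1.58 (SE 0.46, adjusted p = 0.248, where 0.34% of genes passed), and that for Bhlhe40 was -0.24 (SE 0.35, adjusted p = 0.701).

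**Figure D5:**
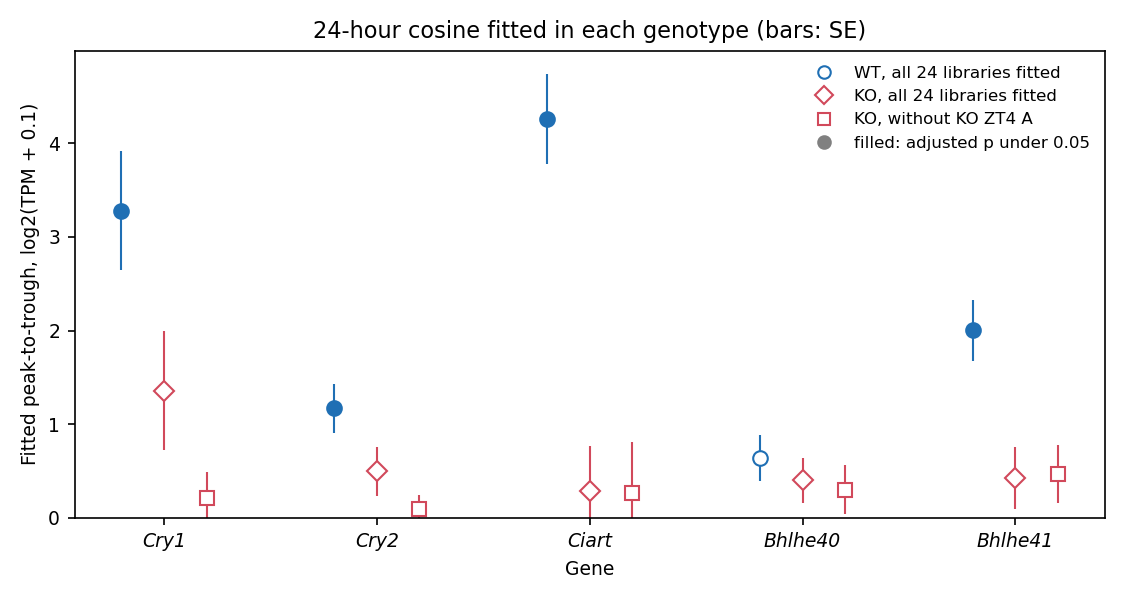
Fitted peak-to-trough difference of a 24-hour cosine on the log2(TPM + 0.1) scale for each gene in WT (circles), in KO (diamonds) and in KO without the library labelled KO ZT4 A (squares); bars are standard errors, drawn down to 0, and filled symbols have an adjusted p under 0.05. In WT 4 genes are filled, with Ciart highest at 4.26, and no KO symbol is.

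The other parts of the clock were described by gene lists. All 3 activators (Arntl, Clock and Npas2), all 3 Period genes and all 3 PAR bZIP factors (Dbp, Tef and Hlf) were rhythmic in WT, as were 4 of 5 tested genes of the REV-ERB, ROR and Nfil3 list. In KO only Per1 passed among these 14 genes, with a swing of 1.81 (adjusted p = 0.0279, limma), and it did not pass without the library labelled KO ZT4 A (1.60, adjusted p = 0.0638). In mean level Npas2, a partner of BMAL1 related to CLOCK, rose by 3.26 (SE 0.47, adjusted p = 1.95e-05) and Clock by 0.44 (SE 0.09, adjusted p = 0.000454). Per3 fell by 1.44 (SE 0.25, adjusted p = 7.97e-05) and Per2 fell by 0.44 (SE 0.16, adjusted p = 0.0236), both of them partners of the cryptochromes. In the loop known to act on Cry1 and Arntl through ROR elements, the REV-ERB repressor gene Nr1d2 fell by 2.72 (SE 0.31, adjusted p = 1.66e-06) and Nr1d1 fell by 1.83 (SE 0.41, adjusted p = 0.000919). Of the output factor genes, Tef fell by 0.58 (SE 0.17, adjusted p = 0.0065) and Dbp fell by 1.64 (SE 0.52, adjusted p = 0.0111), all by limma over all genes. Each of these named differences kept its direction and stayed past the threshold under median-of-ratios scaling and without the library labelled KO ZT4 A.

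In the lists of protein turnover genes and of corepressors, the genes that passed changed by at most 0.33 log2 units. Of 12 genes for turnover and modification of CRY and PER proteins, 4 rose and 1 fell, with a list median of 0.11 beside 0.15 for all genes, but under median-of-ratios scaling 1 rose and 4 fell. Among all genes tested, 50.9% were called higher in KO and 10% lower, so neither this count nor that of the corepressors below is read as a result about the list. Btrc, part of a ubiquitin ligase for PER, rose by 0.28 (SE 0.05, adjusted p = 4.78e-05), Prkaa1 by 0.22 (SE 0.04, adjusted p = 0.000352), and Prkaa2 fell by 0.16 (SE 0.05, adjusted p = 0.00552). Both Prkaa genes encode catalytic subunits of AMP-activated kinase, and Prkaa1 did not pass under that scaling (adjusted p = 0.0778). Of 9 corepressors and cofactors, 5 rose and 0 fell (9 tested, 5 at an unadjusted p under 0.05, limma), with a median of 0.11, but 2 rose and 1 fell under that scaling. Those with the smallest p-values included Wdr5, a subunit of chromatin-modifying complexes, at 0.33 (SE 0.04, adjusted p = 1.48e-06) and Nono, an RNA- and DNA-binding partner of PER, at 0.25 (SE 0.04, adjusted p = 7.51e-05). Of the HES and HEY relatives, 3 of 6 were tested. Hes1, a Notch target, rose by 0.39 (SE 0.07, adjusted p = 8.64e-05), and Hes6 fell by 0.39 (SE 0.08, adjusted p = 0.000381) and Heyl fell by 0.30 (SE 0.11, adjusted p = 0.0175). Usp2, a deubiquitinase gene of the turnover list, was rhythmic in WT with a swing of 1.24 (SE 0.24, adjusted p = 0.0047), and so were Fbxl21 (1.13, adjusted p = 0.000517) and Btrc (0.40, adjusted p = 0.0164).

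The genes most like each member were found by the Pearson correlation of log2(TPM + 0.1) over the 24 libraries, which share genotype and time, and are given as a description. Among the 3 closest to Cry1 were Tcim (r = 0.942) and Dync1i2 (0.938), which were also among the 3 closest without the library labelled KO ZT4 A. Closest to Ciart were Per3 (0.911), Dbp (0.896) and Tef (0.888). Closest to Bhlhe41 were Ciart (0.866), Tef (0.858) and Uhrf1bp1l (0.832). Closest to Cry2 were Slc12a3 (0.876), Eif5a2 (0.873) and Pdxk (0.871), with Ccnd3 in place of Eif5a2 when the library labelled KO ZT4 A was left out. The best matches of Bhlhe40 were weaker, with C1ql3 at 0.714, Rere at 0.691 and Ripk4 at 0.665. Among the members themselves in the 12 WT libraries, r was 0.935 for Ciart with Bhlhe41, 0.768 for Cry2 with Ciart and -0.017 for Cry1 with Cry2.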

How the data were processed

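PolyA-selected kidney RNA was measured in 24 libraries (12 WT and 12 KO). The authors deposited TPM per transcript, and kallisto 0.42.4 is named in the submitters' processing notes; the index and the strand setting are not given in the sources used here. The deposited TPM columns have 1 common total, so depth is unknown. Contact data of the series were not used here.

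Of 88198 transcripts, 86119 matched a gene by Ensembl identifier without version (GENCODE M21, GRCm38) and were summed per gene. The unmatched 2079 held 1.35% to 2.24% of TPM per library. Tests used limma 3.58.1 in R 4.3.3 (lmFit, eBayes with trend and robust) on log2(TPM + 0.1), so fold changes of low genes are understated. The filter was an average of 1 TPM over the libraries (12874 genes), and p-values were adjusted by Benjamini-Hochberg over all of them, with 0.05 as the threshold. Models held genotype with time at 6 levels, 12 group means, or a 24-hour cosine in each genotype. Bhlhe41 was taken from the same models with a filter of 0.1 TPM. Tests were two-sided or F tests. Simulated data of 12874 genes held 200 or 400 genes changed by 1 log2 unit for each test. The genotype test recovered 98% of changed genes, the WT rhythm test 81% and the KO rhythm test 80%. The rhythm difference test recovered 68.3% and the ZT8 test 81.3%. Simulated noise was independent between genes and no simulated library stood apart, so these rates may be too high for the real data.

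The members and gene lists were chosen with earlier results of these data known. The rule named the members, their transcripts with at least 10% of the gene's TPM, Arntl, up to 3 list genes per test by smallest p-value, and the 3 genes most correlated with each member; 1 gene that the rule named is not reported here. Markers, Slc12a3, C920021L13Rik and list counts were added beside results. Library letters were checked for pairing: same-letter deviations of WT and KO correlated between -0.089 and 0.15 over the 6 times, so libraries were not paired. Alternatives covered the pseudocount (1 and 0.01), filters (none, 0.1 and 5 TPM), scaling, protein-coding transcripts, a replicate block, eBayes options, the time term, separate fits per genotype and leaving out each library.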

Additional observations from a re-analysis of the deposited data

Results flagged for a closer look

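The rhythm of Ciart differed between the genotypes by a test of the difference itself, with an adjusted p of 0.0089 (limma, moderated F over 12874 genes). The fitted swing was 4.26 log2 units in WT and 0.29 in KO. It remained past the threshold without the library labelled KO ZT4 A (adjusted p = 0.0131). Groups of 2 libraries are too small for a search within a group for single outlying samples. The library labelled KO ZT4 A was singled out by comparison with the other KO libraries.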

How the results depend on the processing

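The mean differences of Cry1, Cry2 and Ciart kept direction and stayed past the threshold under every alternative run on them. Members called over the 6 times numbered 6, against 3 with a filter at 5 TPM, which leaves Ciart out, 15 without the library labelled KO ZT4 A, 13 without KO ZT4 B and 13 without the former under median-of-ratios scaling, a setting chosen after seeing the data. Members with a difference in rhythm numbered 1, against 0 at 5 TPM and 3 without that library under either scaling. Genes with such a difference numbered 81, against 43 with no filter, 23 with time at 6 levels and 124 without that library under median-of-ratios scaling; leaving out single libraries gave 37 to 112. Genes rhythmic in KO numbered 468, against 12 in KO alone, 11 there without that library (chosen after seeing the data), 295 with no filter and 28 with time at 6 levels; leaving out single libraries gave 272 to 620. Genes rhythmic in WT numbered 1761, against 2816 in WT alone and 576 with time at 6 levels, when 1 member passed. The cause was not tested.

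Every reversal was of an uncalled value, and single-library ranges are given for the gene and time they touch. For Bhlhe40 at ZT20 (0.05) the value was -0.0390 under median-of-ratios scaling, -0.0392 with the library labelled KO ZT4 A also left out, and -0.20 to 0.30 without single libraries; at ZT0 the range was -0.33 to 0.027 and at ZT16 -0.78 to 0.12. For Bhlhe41 at ZT4 (-0.04) it was 0.0052 with a pseudocount of 1, 0.31 without that library under median-of-ratios scaling, and -0.60 to 0.51 without single libraries; at ZT20 the range was -0.57 to 0.20. Ciart at ZT0 ranged from -0.20 to 0.50, and Cry2 at ZT4 from -0.0736 without KO ZT4 B to 1.44. With the letter as a replicate block, Bhlhe40 at ZT8 passed (-0.72, adjusted p of 0.028 over all libraries and 0.0217 within each genotype, limma), and the mean difference of Bhlhe41 did not pass within each genotype (-0.49, adjusted p = 0.0532). The replicate block changed no other call of a member. With 2 libraries a group and no known depth, small differences at single times cannot be resolved.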
